A study of Mus musculus with 6 samples.

Results

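Foxp3+ cells made up 97 of the 12818 T cells in the deposited single-cell table. They were chosen by measured values, as cells with at least 1 UMI (unique molecular identifier, the tag that marks a single captured RNA molecule) of Foxp3 and no UMI of Cd8a or Cd8b1, the genes of the CD8 coreceptor. The comparison cells, called CD8+ T cells here, held a UMI of Cd8a or Cd8b1 and none of Cd4 or Foxp3, and numbered 4497. Since measured values chose both sets, the levels of these 4 gating genes and of genes that go with them describe the sets and test nothing.

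Foxp3 is the transcription factor that defines Treg cells, CD4+ T cells that restrain other T cells. Treg cells consume IL-2 through its high-affinity receptor, carry CTLA-4, and can change from recirculating through lymphoid organs, guided by receptors such as CCR7, to lodging in tissues and tumors under other chemokine receptors and integrins. CD8+ T cells are the cytotoxic T cells that kill tumor cells with granzymes and perforin.

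All cells were TCR-b+ T cells sorted from B16-F10 melanomas, a syngeneic mouse tumor grown under the skin of Foxp3-EGFP-DTR mice. In these mice the diphtheria toxin receptor and EGFP are made wherever the endogenous Foxp3 gene is active, so diphtheria toxin (DTx) removes Foxp3+ cells. The 6 samples, all of this genotype, came in 3 cases from mice given PBS and in 3 from mice given DTx, and were measured with 10x 5′ single-cell RNA sequencing, and no age is given in the labels. The table marks cells with library numbers 1 to 6 that no label ties to a sample, so no library is called PBS or DTx here, the cells form a single pool, and no comparison carries a p-value.

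Library 1 held 49 Foxp3+ cells, library 2 held 30, library 3 held 17, library 6 held 1, and libraries 4 and 5 held none. The comparisons therefore rest on libraries 1 to 3 (the cell of library 6 enters the totals but no call), which also held 622, 886 and 402 CD8+ T cells. The Foxp3+ cells of these libraries had medians of 1839, 1397.5 and 1079 UMIs per cell against 1386.5, 1289 and 884.5 in the CD8+ T cells, so the Foxp3+ cells were the deeper set in each. Of 12742 distinct cell barcodes, 76 occurred in more than 1 library, and 2 of the 97 Foxp3+ cells carried such a barcode.

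The gate rested on few molecules. Of the 97 cells, 77 held a single Foxp3 UMI, 16 held 2 and 4 held 3 or more, with 122 Foxp3 UMIs in all. In libraries 1 to 3 a Foxp3 UMI was found in 1.89% of the 5070 cells without a Cd8 UMI (exact Clopper-Pearson 95% interval 1.54 to 2.31%, median depth 826 UMIs). The same share was 0.815% of the 1962 cells with a Cd8 UMI (0.467 to 1.32%, median depth 1288.5 UMIs), cells that should rarely use the gene. In library 1 the shares were 3.34% and 1.98%, in library 2 they were 1.71% and 0.225%, and in library 3 they were 0.917% and 0.241%. The share without Cd8 was thus the higher in each library, despite the lower depth, and the ratio between the shares was smallest in library 1. Free RNA and doublets as sources of these UMIs were not tested.

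The other Treg markers went with the label. Ikzf2 (Helios), Il2ra (CD25) or Ctla4 gave at least 1 UMI in 82 of the 97 cells, 84.5% (75.8 to 91.1%), against 257 of the 1910 CD8+ T cells of libraries 1 to 3, 13.5%. By library the Foxp3+ shares were 93.9, 76.7 and 70.6%, and the CD8+ shares 19.3, 6.32 and 20.1%. With every cell thinned to 500 UMIs, 50 of 94 Foxp3+ cells (53.2%) and 114 of 1855 CD8+ T cells (6.15%) of libraries 1 to 3 kept a marker UMI. All 3 markers were found in 12 cells, and the 15 cells with none had a median of only 970 UMIs. Cd4 gave a UMI in 19 of 97 cells. The gate also left cells out: 464 cells of the 6 libraries had no Foxp3 or Cd8 UMI but UMIs of at least 2 of these markers, and 54 had all 3.

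Levels below are UMIs per 10000 UMIs of the set in a library. A ratio divides the UMIs found in Foxp3+ cells by the number expected from the comparison cells of the same library at the same total. Its 95% interval is an exact conditional one for a ratio held common to the libraries, so it need not be symmetric about the ratio, and it covers counting error only. UMIs of a single cell are not independent, and the intervals are too narrow where few cells hold a gene. A gene is called higher or lower when the log2 ratio, with a pseudocount of 0.5, reaches 2-fold and has the same direction in each of libraries 1 to 3.

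Among 4195 genes with at least 10 UMIs found plus expected, 343 were called higher in Foxp3+ cells, 8.18% of those tested, and 109 lower, 2.6%. The median log2 ratio over all tested genes was 0.26, so a list near that value did not stand out. Ribosomal protein and mitochondrial genes moved this balance: with both kinds left out of the totals the median was 0.04 and the calls were 216 higher and 192 lower, and with log2 ratios centred on their median they were 202 and 170.

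The CD8+ T cells of the 3 libraries were in different states. A UMI of Ccr7 or Lef1, genes of naive and recirculating T cells, was found in 41.6, 74.8 and 30.1% of them in libraries 1, 2 and 3. Such a UMI was found in 20.4, 36.7 and 41.2% of the Foxp3+ cells. Each ratio therefore compares Foxp3+ cells with a CD8+ set that was mostly naive-like in library 2. For this reason ratios are also given against activated CD8+ T cells (a UMI of Gzmb, Pdcd1, Havcr2, Tnfrsf9 or Ifng and none of a set of naive genes that includes Ccr7 and Lef1, all left out of this comparison), of which libraries 1, 2 and 3 held 159, 15 and 118, and against CD4+ Tconv cells (a Cd4 UMI, none of Foxp3 or Cd8), of which they held 145, 151 and 123. Against activated CD8+ T cells, 7.2% of 4319 genes were called higher and 4.77% lower. Against Tconv cells the shares were 3.66% and 3.01% of 4317 genes. The 15 activated cells of library 2 make that comparison the least certain of the 3. A UMI of Ikzf2, Il2ra or Ctla4 was found in 94 of 292 activated CD8+ T cells (32.2%) and 92 of 419 Tconv cells (22.0%) of libraries 1 to 3. After thinning to 500 UMIs these shares were 15.5% and 11.1%, beside 53.2% of Foxp3+ cells. The markers were thus more frequent in these sets than in all CD8+ T cells.

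The Treg-associated list, genes known from other work to go with Treg cells, stood well above the background of the CD8+ comparison. Of its 34 genes 25 could be tested, 20 were called higher and none lower, with a median log2 ratio of 2.46. It includes markers of the label and was chosen with earlier results of these data known, so these counts describe the set and test nothing. Against Tconv cells 10 of 25 were called higher and none lower, with a median of 0.97, beside 0.10 for all genes. Ikzf2 measured 6.26, 6.03 and 3.86 UMIs per 10000 in the Foxp3+ cells of libraries 1, 2 and 3 and 0.755, 0.236 and 0.984 in CD8+ T cells, a ratio of 8.78 (7.05 to 11.6). Il2ra, the IL-2 receptor alpha chain, measured 2.06, 2.26 and 5.05 against 0.208, 0.0229 and 0.265, a ratio of 15.03 (10.4 to 24.1). Ctla4, an inhibitory receptor that takes up B7 ligands, measured 8.04, 6.41 and 4.46 against 1.45, 0.381 and 1.93, a ratio of 5.59 (4.61 to 7.003). Each of the 3 was higher in every library, with Ikzf2 and Ctla4 lowest and Il2ra highest in the Foxp3+ cells of library 3.

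Costimulatory receptors of the TNF receptor family were prominent on the same side. Tnfrsf4 (OX40) measured 7.29, 12.1 and 9.21 against 0.887, 0.160 and 0.965, a ratio of 12.4 (11.01 to 17.0). Tnfrsf9 (4-1BB) gave a ratio of 5.75 (4.39 to 7.95) and Tnfrsf18 (GITR) 5.18 (4.08 to 6.64). Icos, a CD28-related costimulator, gave 4.12 (3.42 to 4.92). Against Tconv cells of the same libraries the ratio of Tnfrsf4 was 1.67 (1.42 to 2.11) and that of Icos 1.75 (1.42 to 2.14), short of a call. Ikzf2 at 4.01 (3.01 to 5.55) and Il2ra at 3.203 (2.23 to 5.25) kept a call there. Il1rl1, the receptor for the alarmin IL-33, measured 1.40, 0.565 and 4.16 in Foxp3+ cells against 0.0850, 0.0153 and 0.189 in CD8+ T cells. Its ratios were 19.5 (11.1 to 36.1) against CD8+ T cells and 12.3 (5.15 to 24.2) against Tconv cells, in 18 Foxp3+ cells. The growth factor gene Areg (amphiregulin) had 60 UMIs against 3.82 expected from CD8+ T cells, a ratio of 15.7 (11.5 to 25.8), but 1.26 (0.954 to 1.82) against Tconv cells. Il1rl1 was therefore higher than in both other sets, while Areg was higher than in CD8+ T cells.

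By the rule that named the 12 highest ratios of the whole table, Penk, Il1r2, Cxcl2, Dgat2, Cd81, Neb, Il1rl1, Rln3, Cd74, Areg, Il2ra and Tnfrsf4 led. Penk, the precursor of enkephalin peptides, had 28 UMIs against 0.361 expected, but in 8 cells with up to 7 in a single cell, and the ratio against Tconv cells was 1.56 (0.954 to 2.49). Il1r2, a decoy receptor for IL-1, had 15 UMIs in 11 cells against 0.454 expected. Cd81, a tetraspanin, had 23 UMIs in 15 cells against 1.09 expected. Cd74, the invariant chain of MHC class II, had 49 UMIs in 29 cells against 2.77 expected. Cd74 is also high in B cells and myeloid cells. In the Foxp3+ cells 2 of 4 detected B cell markers, Cd79a and Cd79b, were at 0, and all 4 together gave 39 UMIs against 25.7 expected. Myeloid markers gave 4 UMIs against 4.16 expected, with Cd68 and Csf1r at 0. NK markers gave 2 UMIs against 3.2 expected and gamma-delta T cell markers 2 against 2.42. None of the 5 detected melanoma or 2 detected stromal markers had a UMI. The part of other cell types in the Cd74 ratio was not tested.

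Promoters of list genes called higher were searched for the NF-kappaB consensus, the site of a factor family downstream of antigen and TNF family receptors. The windows run from 250 bases before to 50 after each RefSeq start (GRCm38.p6). At least 1 match on either strand lay in 7 of 39 such genes found in RefSeq (12 were not matched): Cxcl10, Cxcl2, Got1, Il2ra, Nr4a1, Slc29a1 and Tnfrsf9. Among genes with a RefSeq promoter, the share was 11.1% of 262 of the 343 called higher, 6.41% of 3337 of the 4195 tested, and 5.14% of all 27025. Genes not matched in RefSeq were not searched. The 4 windows with more than 1 match, counting overlapping matches, are printed 5′ to 3′ on the gene's strand because they belong to receptors described above and chemokines described below, with matched bases in capitals. A match is a description of the letters and no evidence of binding.
Il2ra promoter, chr2:11642542-11642841, plus strand: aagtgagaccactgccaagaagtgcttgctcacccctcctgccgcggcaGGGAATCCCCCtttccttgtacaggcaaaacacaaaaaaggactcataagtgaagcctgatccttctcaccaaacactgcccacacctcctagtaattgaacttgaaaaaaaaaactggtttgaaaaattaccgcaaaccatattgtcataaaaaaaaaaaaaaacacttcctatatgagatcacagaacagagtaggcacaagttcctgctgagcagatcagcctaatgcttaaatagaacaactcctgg
Tnfrsf9 promoter, chr4:150927749-150928048, plus strand: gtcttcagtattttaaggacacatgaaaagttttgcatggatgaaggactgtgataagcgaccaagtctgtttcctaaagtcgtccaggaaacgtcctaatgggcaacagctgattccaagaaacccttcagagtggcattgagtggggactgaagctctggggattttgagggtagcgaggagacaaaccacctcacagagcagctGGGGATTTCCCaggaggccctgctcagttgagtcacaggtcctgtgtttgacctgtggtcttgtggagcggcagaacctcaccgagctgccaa
Cxcl2 promoter, chr5:90903649-90903948, plus strand: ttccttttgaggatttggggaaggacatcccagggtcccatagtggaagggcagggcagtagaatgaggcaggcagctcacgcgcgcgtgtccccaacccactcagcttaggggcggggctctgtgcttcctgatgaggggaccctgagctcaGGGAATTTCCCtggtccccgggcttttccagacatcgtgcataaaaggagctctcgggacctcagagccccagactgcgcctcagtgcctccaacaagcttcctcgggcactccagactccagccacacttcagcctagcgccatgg
Cxcl10 promoter, chr5:92348840-92349139, minus strand: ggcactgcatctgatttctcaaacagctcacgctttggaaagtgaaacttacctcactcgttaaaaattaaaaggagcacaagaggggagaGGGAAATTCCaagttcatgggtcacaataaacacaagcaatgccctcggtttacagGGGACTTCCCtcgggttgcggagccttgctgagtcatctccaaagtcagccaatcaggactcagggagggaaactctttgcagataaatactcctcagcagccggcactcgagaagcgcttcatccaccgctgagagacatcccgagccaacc
The matches of Cxcl2, Il2ra and Tnfrsf9 were overlapping ones that form a single stretch, and Cxcl10 had 2 separate stretches.

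Few tissue chemokine receptors were deep enough to compare. Of 18 genes 7 were tested and 1 was called higher, Ccr8. The median log2 ratio of the 7 was 1.60 beside 0.26 for all genes, but a gene can pass the filter through its Foxp3+ UMIs alone, and without the filter the median over the list was 0.25. The ratio summed over all 18 members was 2.66, 3.83 and 1.18 in libraries 1, 2 and 3. Ccr8, a receptor for CCL1, measured 1.68, 1.32 and 3.27 in the Foxp3+ cells of libraries 1, 2 and 3 and 0.349, 0.0229 and 0.246 in CD8+ T cells. Its 36 UMIs lay in 20 cells and the ratio was 7.64 (5.24 to 12.9). Set against activated CD8+ T cells it was 3.23 (1.81 to 5.09), and against Tconv cells 2.01 (1.35 to 3.44), short of a call. Ccr4, a receptor for CCL17 and CCL22, had 13 UMIs in 12 cells, at 1.03, 0.377 and 0 against 0.0566, 0.00763 and 0.114. Its ratio of 12.6 (5.12 to 28.4) was not a call, since library 3 held no UMI, a count too low to give a direction there. Ccr2, which was picked out after its values were seen, measured 4.21, 0.754 and 0.297 against 0.755, 0.0458 and 0.682, so most of its 52 UMIs came from library 1.

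Receptors that guide type 1 effector cells did not follow. Cxcr3, the receptor for CXCL9 and CXCL10, had 18 UMIs against 13.7 expected, a ratio of 1.31 (0.767 to 2.17). Cxcr6, the receptor for CXCL16, had 13 against 13.4 (0.968, 0.496 to 1.67). Neither differed from CD8+ T cells beyond counting error.

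**Figure D1:**
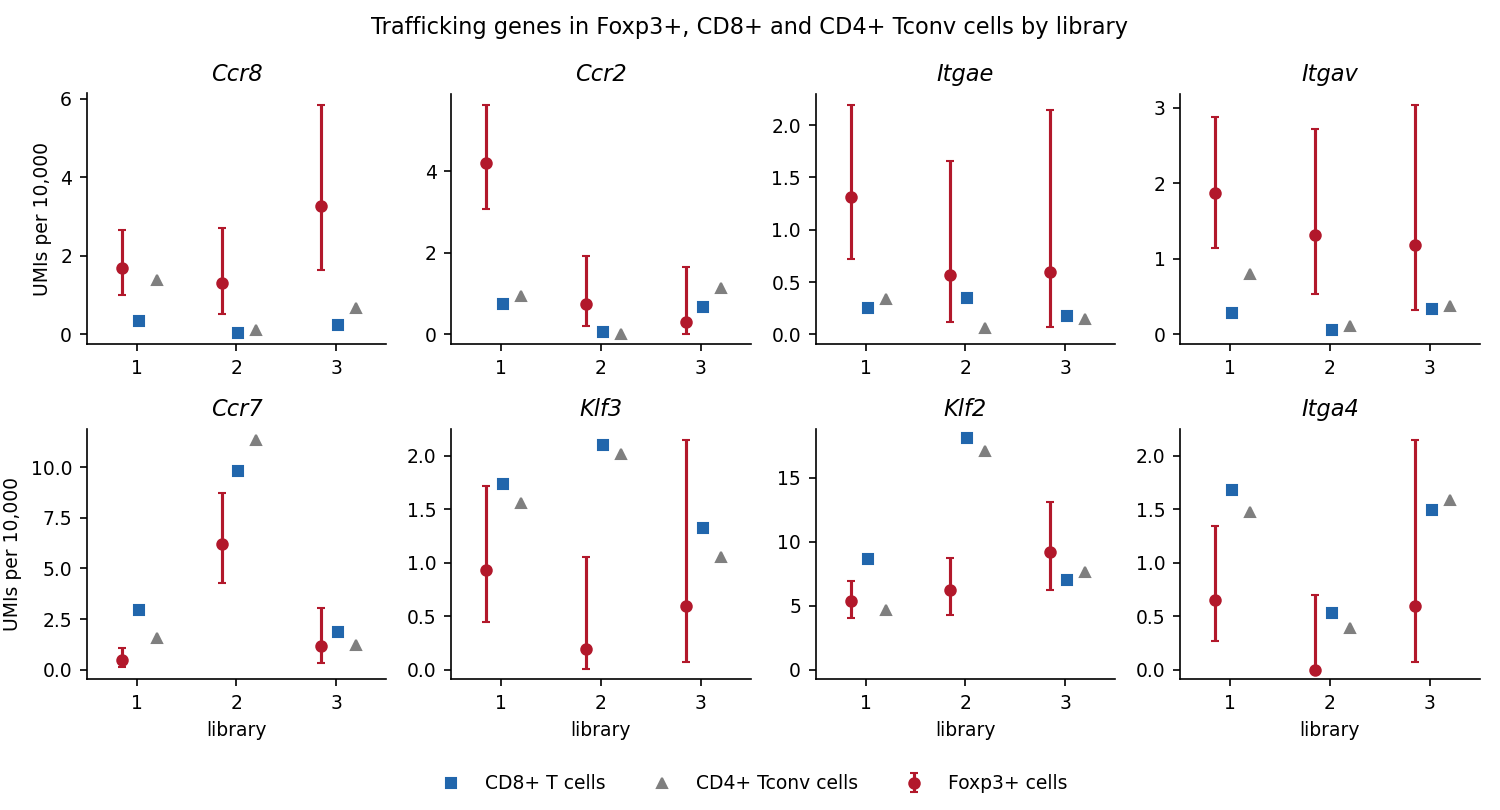
Levels of 8 trafficking genes in UMIs per 10000 UMIs (vertical axes, linear) in libraries 1 to 3 (horizontal axes), with circles for Foxp3+ cells and their exact Poisson 95% intervals, squares for CD8+ T cells and triangles for CD4+ Tconv cells. Ccr8 and Itgae lay above the CD8+ level in every library, while Ccr7 of Foxp3+ cells ranged from 0.467 in library 1 to 6.22 in library 2.

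Genes of lymphoid homing and egress divided. The median of the 9 tested of 11 genes was -0.13, 3 were called lower and none higher, and the median was -0.42 without library 1 and 0.02 without library 3. The summed ratio over all members was 0.684 (0.608 to 0.763), at 0.776, 0.473 and 1.05 in libraries 1, 2 and 3. Ccr7, the receptor that draws cells into lymph nodes, measured 0.467, 6.22 and 1.19 against 2.93, 9.81 and 1.86, a ratio of 0.468 (0.338 to 0.640). The Foxp3+ cells were the lower set in each library, and Ccr7 was highest in library 2 in both sets. Klf2, a transcription factor that maintains S1pr1, measured 5.33, 6.22 and 9.21 against 8.66, 18.1 and 7.005 and went the other way in library 3. Klf3, a related factor, was called lower at 0.409 (0.221 to 0.690). S1pr1, the receptor for exit into blood and lymph, had 25 UMIs against 24.5 expected, a ratio of 1.02 (0.646 to 1.52). S1pr1 was called higher than in activated CD8+ T cells, at 3.29 (1.32 to 4.63). That gate takes out cells with naive genes. The homing genes called lower thus included Ccr7 and Klf3, and S1pr1 stood at the level of all CD8+ T cells.

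Integrin and adhesion genes gave 5 genes called higher and 2 lower of 16 tested, beside 8.18% and 2.6% of all tested genes. The median was 0.79, but 0.40 over the list without the filter, beside -0.01 for all genes. The ratio summed over all 22 members was 1.04 (0.963 to 1.13), at 0.970, 1.42 and 0.917 in libraries 1, 2 and 3. The list as a whole was thus near parity, and single genes went both ways. Itgav, the integrin alpha V chain that pairs with beta chains to activate latent TGF-beta, measured 1.87, 1.32 and 1.19 against 0.283, 0.0610 and 0.341, a ratio of 6.84 (4.34 to 11.1). Itgae (CD103, which binds E-cadherin) had 19 UMIs in 14 cells, a ratio of 3.70 (2.03 to 5.98). Cd44, the hyaluronan receptor of activated T cells, gave 3.59 (2.53 to 4.97). Ly6a and Cd2 were called higher at 2.95 (2.42 to 3.76) and 2.15 (1.77 to 2.66). Itgav, Itgae and Cd44 were also called higher against both activated CD8+ T cells and Tconv cells. Itgb1, the beta 1 chain, reached 1.76 (1.37 to 2.27) against CD8+ T cells and 0.931 (0.710 to 1.24) against Tconv cells. Itga4, the alpha 4 chain of VLA-4, was called lower at 0.385 (0.183 to 0.718), and so was Ly6c2, at 0.118 (0.0792 to 0.168). Ly6c2 measured 2.06, 0.565 and 1.49 in Foxp3+ cells against 16.8, 7.22 and 9.98, and its ratio against Tconv cells was 0.965 (0.602 to 1.45). Itgae overlaps the gene Haspin, Tnfrsf9 overlaps Camta1 and Acadvl overlaps Dvl2 in the annotation, and whether reads were counted by strand is not given in the sources used here, so their values are less certain.

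Of 14 tested genes of tissue residency 5 were called higher and none lower, with a median of 0.72. Rgs1 and Rgs2, which dampen signaling from chemokine receptors, gave 2.18 (1.87 to 2.53) and 3.09 (2.29 to 4.02). Against activated CD8+ T cells the ratio of Rgs1 was 1.05 (0.996 to 1.40) and that of Rgs2 was 2.56 (1.87 to 3.94). The residency list median there was 0.35, beside 0.08 for all genes.

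Chemokine ligands went in opposite directions. Ccl4, made by effector CD8+ T cells, measured 0.280, 0.377 and 0.891 in Foxp3+ cells against 5.52, 2.20 and 7.33, a ratio of 0.0824 (0.0355 to 0.163). Ccl3 had 3 UMIs against 15.4 expected (0.195, 0.0399 to 0.580). Xcl1, the ligand that attracts cross-presenting dendritic cells, had 8 UMIs against 29.0 expected, all in a single cell. Cxcl2, a neutrophil attractant, had 38 UMIs against 1.88 expected, a ratio of 20.2 (10.5 to 29.7), but they lay in 5 cells with up to 15 in a single cell. Cxcl10 had 19 UMIs in 10 cells against 3.18 expected, 5.97 (3.40 to 11.04), with all 8 UMIs of library 2 in 1 cell and the single UMI of library 3 in 1. Both results therefore describe few cells and not the population.

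Within the Foxp3+ cells, Ccr7 and the tissue receptors differed in frequency between libraries. A UMI of Ccr7 was found in 16 of 97 cells, and one of Ccr8, Ccr4 or Ccr2 in 47 of 97, with 7 cells holding both kinds and 41 neither. A tissue receptor was thus found in 7 of the 16 cells with Ccr7, a share near that of all Foxp3+ cells. By library, 1 to 3, Ccr7 was found in 3 of 49, 9 of 30 and 4 of 17 cells, and the tissue receptors in 32 of 49, 7 of 30 and 7 of 17. A tissue receptor was thus most frequent in library 1 and Ccr7 in library 2, in cells not thinned to equal depth. The first of these rests in part on Ccr2, which was picked out after its values were seen and lay mostly in library 1. Ccr8 alone was found in 10 of 49, 3 of 30 and 7 of 17 cells, most often in library 3. The 9 cells with Ccr7 only came from libraries 2 and 3 in numbers of 6 and 3, and of the 40 with only a tissue receptor 29, 4 and 6 came from libraries 1, 2 and 3 and 1 from library 6, so kind and library cannot be told apart. Icos measured 2.95 (1.08 to 6.43) UMIs per 10000 UMIs in the Ccr7-only cells and 10.3 (8.27 to 12.6) in the tissue-only cells, with exact Poisson intervals. Izumo1r (folate receptor 4) went the other way, at 7.38 (4.13 to 12.2) and 2.12 (1.28 to 3.31). Maf, a transcription factor of effector Treg cells, measured 2.46 (0.799 to 5.74) and 6.24 (4.72 to 8.11), and Cd44 0.492 (0.0125 to 2.74) and 3.46 (2.35 to 4.91). The intervals of Maf and Cd44 overlapped, as did those of Tnfrsf4 at 14.8 (9.96 to 21.1) and 8.59 (6.78 to 10.7). These kinds were formed on the same cells, so their differences are descriptions.

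Glycolysis genes sat slightly above CD8+ T cells with no gene called. The 14 tested of 24 genes had a median of 0.49, beside 0.26 for all genes, and a summed ratio of 1.37 (1.29 to 1.47). Ldha, which turns pyruvate into lactate, measured 5.23, 6.79 and 8.62 against 4.86, 2.88 and 6.001, a ratio of 1.39 (1.16 to 1.69). The difference was small in library 1 and largest in library 2, the library whose CD8+ T cells were mostly naive-like. Pgam1 gave 1.43 (0.894 to 2.18). The glucose transporters were too sparse to compare, with 7 UMIs of Slc2a1 against 4.10 expected and 4 of Slc2a3 against 3.495. Hk2, which phosphorylates glucose on entry, had 7 against 2.21. Against activated CD8+ T cells Ldha gave 1.21 (0.884 to 1.39) and against Tconv cells 0.973 (0.807 to 1.23), both within counting error of parity. The list median stayed at 0.48 against activated CD8+ T cells, beside 0.08 for all genes, and at 0.43 against Tconv cells, beside 0.10. Its summed ratios there were 1.11 (1.01 to 1.18) and 1.11 (1.04 to 1.20), with no gene called.

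Nuclear genes of oxidative phosphorylation stayed near parity. The 78 tested of 83 nuclear genes had a median of 0.08, below the all-gene median, with none called, and a summed ratio of 1.04 (1.01 to 1.08). The direction is not firm, since the median was -0.14 with totals that leave out ribosomal protein and mitochondrial genes and -0.08 against activated CD8+ T cells. The 13 genes encoded in the mitochondrial genome had a median of -0.43 and a summed ratio of 0.800 (0.760 to 0.842). None of them had a log2 ratio above 0 and 1 was called lower, and set against activated CD8+ T cells their median was -0.08. The 17 tested genes of the TCA cycle had a median of 0.41 and none was called.

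Among tested metabolic genes, lipid genes were the most often called. Of 12 tested fatty acid and triglyceride genes 5 were called higher, and of 6 tested cholesterol genes 4, beside 8.18% of all tested genes. Their medians were 0.94 and 1.03. A gene can pass the filter through its Foxp3+ UMIs alone, so these counts describe the tested genes and not the whole lists. Summed over all members, tested or not, the ratios were 1.71 (1.46 to 2.02) for fatty acid genes and 1.70 (1.40 to 2.04) for cholesterol genes. Without the filter the median over the 25 cholesterol genes was 0.55, beside -0.01 for all genes. Dgat2, which makes triglycerides, measured 0.374, 1.13 and 1.19 against 0.00944, 0.00763 and 0.0757, with 14 UMIs in 11 cells and a ratio of 35.1 (13.8 to 121). It was called higher against activated CD8+ T cells and Tconv cells too, the latter at 15.5 (4.87 to 195). Its relative Dgat1 gave 2.22 (1.23 to 3.85) and the fatty acid synthase Fasn 3.53 (1.41 to 7.71). The oxidation genes Acadvl and Hadha gave 2.92 (1.43 to 5.64) and 2.18 (1.16 to 3.78). Of the cholesterol genes, Idi1 gave 3.27 (1.38 to 6.89), and Insig1, a feedback regulator of the pathway, 2.10 (1.11 to 3.77). Cyp51, at 2.14 (0.939 to 4.43), met the fold rule with an interval that includes parity. Against activated CD8+ T cells the medians were 0.24 for fatty acid genes, with 2 called, and 0.25 for cholesterol genes, with 1 called. Against Tconv cells the medians were 0.34 for fatty acid genes, with 2 called, and 0.43 for cholesterol genes, with none called. Both medians were thus smaller against either of these sets than against all CD8+ T cells.

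Of the other metabolic lists, the 14 tested amino acid and polyamine genes had a median of 0.15 but held Odc1, the rate-limiting enzyme of polyamine synthesis. Odc1 measured 15.6, 9.24 and 17.8 against 3.84, 2.55 and 5.93, in 71 cells, a ratio of 3.67 (3.17 to 4.16). It was called higher against activated CD8+ T cells at 2.62 (2.33 to 3.29) and not against Tconv cells, at 1.42 (1.24 to 1.67). Got1, the cytosolic aspartate aminotransferase, gave 2.98 (1.87 to 4.58), and Slc29a1, a nucleoside transporter, 2.41 (1.10 to 4.82). Among redox genes Mt1 (metallothionein) measured 2.06, 1.13 and 12.2 against 1.77, 0.297 and 2.39, with up to 23 of its 69 UMIs in a single cell of the 19 that held it. Gclm, a subunit of the enzyme that begins glutathione synthesis, had 3 UMIs against 9.73 expected (0.308, 0.0626 to 0.919).

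**Figure D2:**
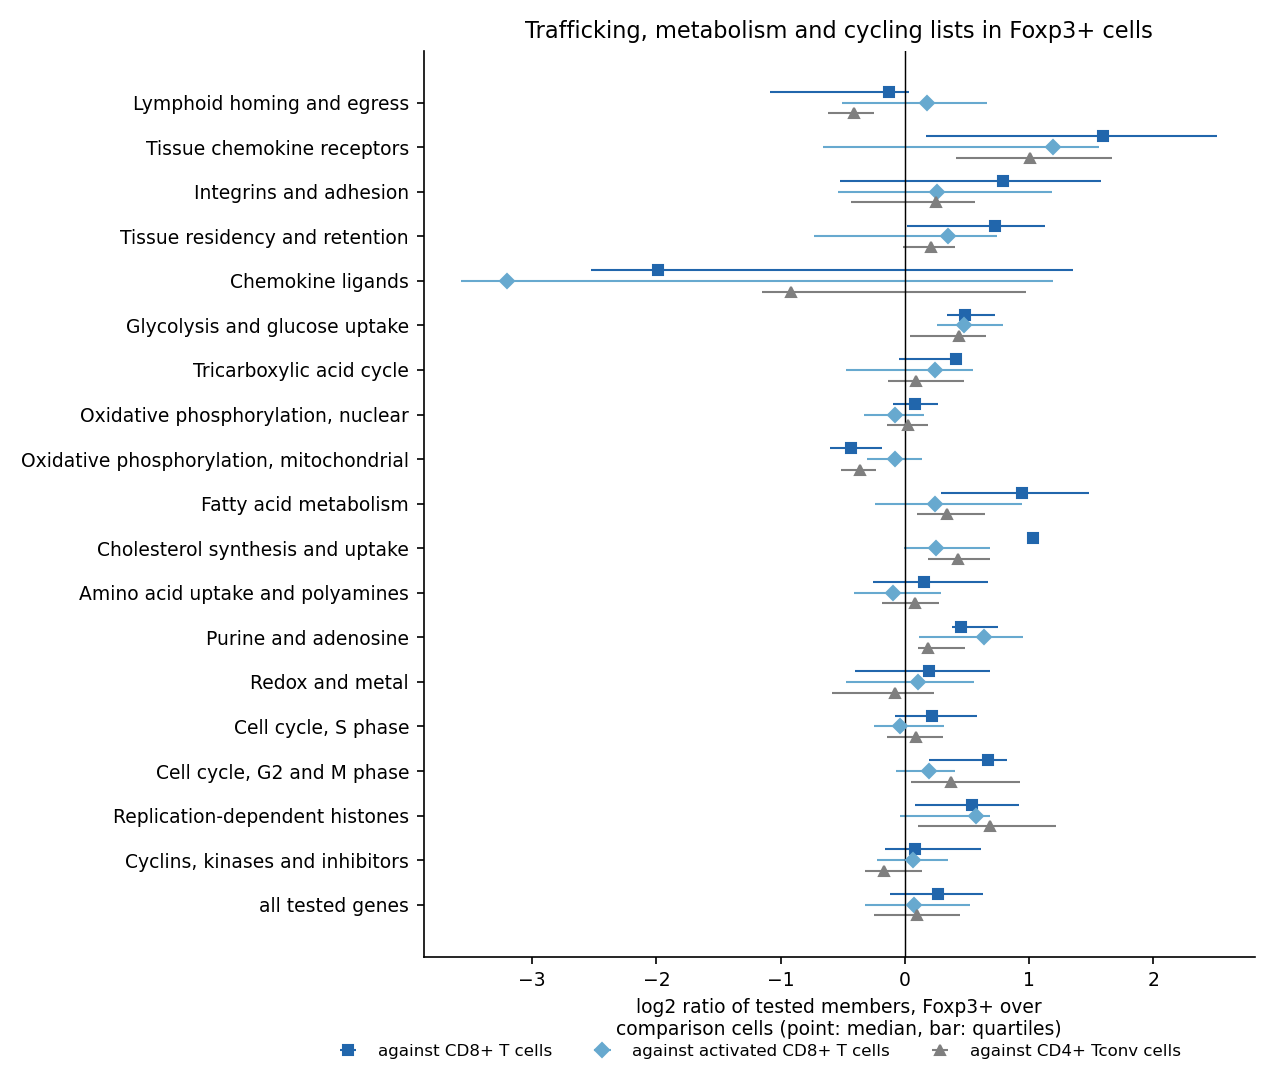
Median log2 ratio of the tested members of each list (points) with their quartiles (bars) on the horizontal axis, for Foxp3+ cells against CD8+, activated CD8+ and CD4+ Tconv cells of the same library, with all tested genes as the lowest line. Against CD8+ T cells tissue chemokine receptors lay at 1.60, cholesterol genes at 1.03 and nuclear oxidative phosphorylation at 0.08, beside 0.26 for all genes.

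The share of Foxp3+ cells counted as cycling lay between those of all and of activated CD8+ T cells. A cell was counted as cycling with at least 3 UMIs of the S and G2/M lists after thinning to 500 UMIs. The lists include a gene used by all cells, Ctcf, so this is not a count of dividing cells. By this measure 22 of 94 Foxp3+ cells of libraries 1 to 3 were counted, 23.4%, against 301 of 1855 CD8+ T cells, 16.2%. With at least 5 UMIs the shares were 5.32% and 4.37%, so they depend on the threshold. With at least 3 UMIs the shares by library, 1 to 3, were 20.4, 23.3 and 33.3% in Foxp3+ cells and 17.4, 10.5 and 28.1% in CD8+ T cells. In Tconv cells they were 22.8, 12.1 and 28.3%. Among activated CD8+ T cells 28.6% were counted. Over all Foxp3+ cells deep enough the share was 22 of 95, 23.2% (15.1 to 32.9%), an interval that holds the Foxp3+, CD8+ and activated CD8+ values alike. Without thinning the shares of Foxp3+ and CD8+ T cells were 70.8% and 58.2%, on cells of unequal depth.

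**Figure D3:**
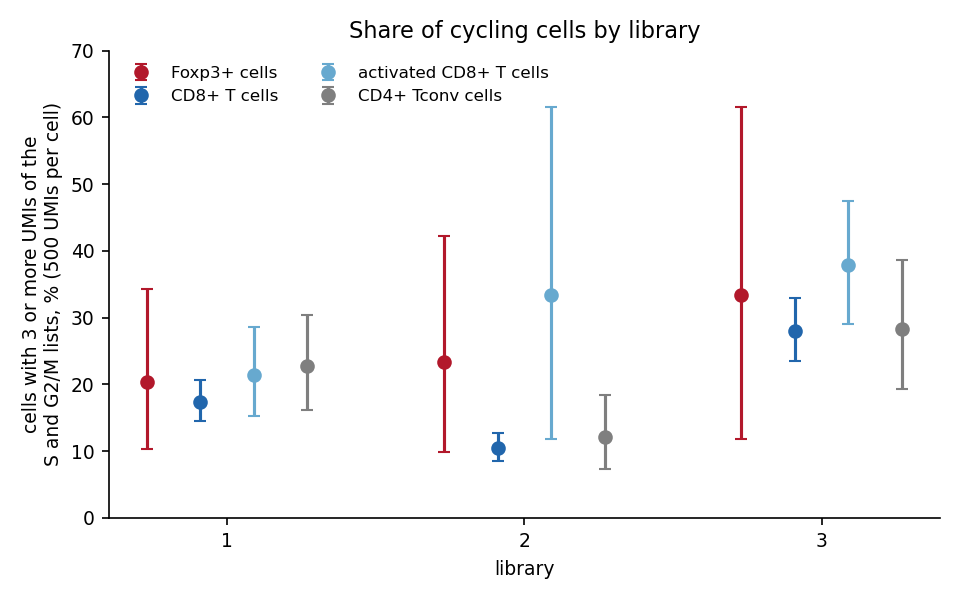
Percent of cells with at least 3 UMIs of the S and G2/M lists after thinning to 500 UMIs (vertical axis, from 0) by library and cell set, with exact Clopper-Pearson 95% intervals. Foxp3+ cells lay at 20.4, 23.3 and 33.3% in libraries 1 to 3, with intervals that cover the values of the other sets.

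Over all cells the 2 phases differed. All 19 tested G2/M genes had log2 ratios above 0, with a median of 0.66 (0.29 without library 2), 3 called higher and a summed ratio of 1.504 (1.40 to 1.62). The 19 tested S phase genes had a median of 0.22, 2 called higher and 1 lower, and a summed ratio of 1.03 (0.899 to 1.18). Measured against activated CD8+ T cells the medians were 0.19 and -0.04, beside 0.08 for all genes. Of 60 replication-dependent histone genes 12 were tested, with a median of 0.54 and none called. Mki67, a marker of dividing cells, measured 0.561, 1.51 and 0.594 against 0.245, 0.130 and 0.568, with 16 UMIs in 7 cells and a ratio of 2.91 (1.62 to 5.17). With Mki67 left out of the list, the summed G2/M ratio was 1.49 (1.38 to 1.61) over all cells. Among cells without an Mki67 UMI, 90 of the Foxp3+ cells, it was 1.08 (0.968 to 1.19). The S phase ratio there was 1.03 (0.881 to 1.21), so the phases differed little outside the 7 cells. Ccnb2, a mitotic cyclin, had 9 UMIs in 5 cells (3.93, 1.58 to 7.82), and Top2a, the topoisomerase of dividing cells, 12 UMIs against 6.82 expected (1.76, 0.916 to 3.38). Ctcf, a chromatin organizer that is on the G2/M list but is used by all cells, had 31 UMIs in 24 cells (2.61, 1.68 to 3.75). Of the S phase genes, Hells and Rrm2 were called higher at 2.20 (1.07 to 4.02) and 2.19 (0.910 to 4.74), and Rpa2 lower with 1 UMI against 10.98 expected (0.0911, 0.00229 to 0.517). Pcna, the replication clamp, had 11 UMIs against 14.2 expected (0.776, 0.381 to 1.42), and Mcm5, of the replicative helicase, 8 against 4.43 (1.81, 0.747 to 3.82).

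The cycling UMIs were unevenly spread over cells. The 97 Foxp3+ cells held 1021 UMIs of the S and G2/M lists, with a median of 4 per cell, and 5 cells held 470 of them, 46.0%. The spread was alike in the 1910 CD8+ T cells of libraries 1 to 3, where the same share of cells, the top 98, held 42.3% of 10494 such UMIs, with a median of 3 per cell. The 7 Foxp3+ cells with an Mki67 UMI held 459 and the highest cell held 151, while 6 cells held none.

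**Figure D4:**
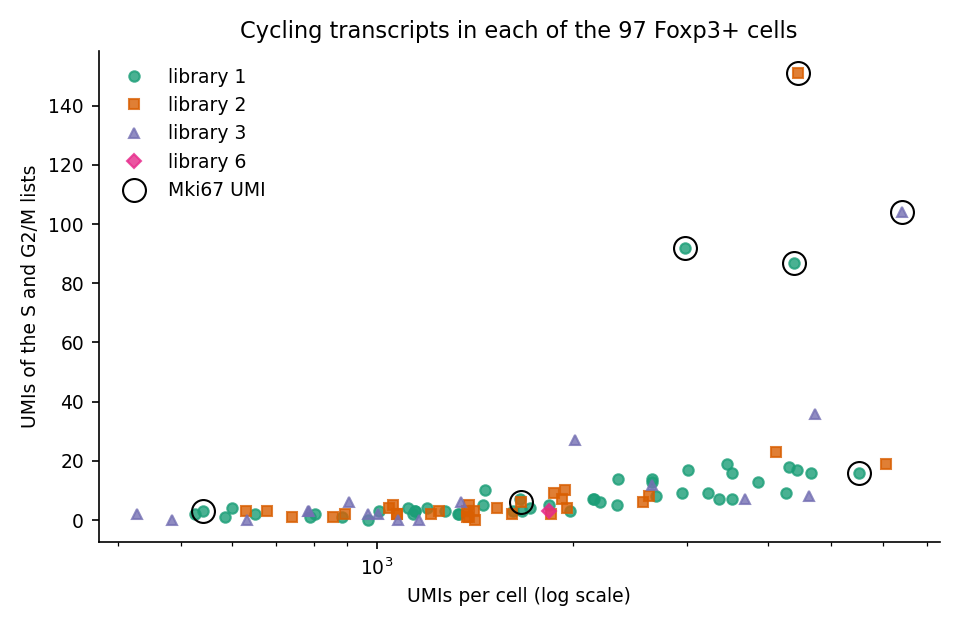
UMIs of the S and G2/M lists (vertical axis, linear) against all UMIs of the cell (horizontal axis, log scale) for each of the 97 Foxp3+ cells, unthinned, with symbols for libraries and circles around the 7 cells with an Mki67 UMI. The highest cell held 151 UMIs against a median of 4.

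Genes that hold or release the cell cycle gave a mixed picture, with 2 called higher and 1 lower of 16 tested and a median of 0.08. Cdkn1a (p21), an inhibitor of cyclin-dependent kinases, measured 1.68, 0.188 and 0.891 against 0.444, 0.0381 and 0.416, a ratio of 3.39 (1.98 to 5.44). Library 2 held 1 of its 22 UMIs. Against Tconv cells its ratio was 1.07 (0.609 to 1.75), within counting error of parity. Rbl2 (p130), a quiescence factor of the retinoblastoma family, gave 2.68 (1.62 to 4.30). Cdkn1b (p27) gave 1.57 (1.01 to 2.28) and was not called. Myc, a driver of growth, had 6 UMIs against 18.8 expected (0.319, 0.116 to 0.700), and was also called lower against activated CD8+ T cells and Tconv cells.

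The genes lowest in Foxp3+ cells included several of cytotoxic CD8+ T cells, and also Dapl1 and Bach2 of the naive list. Dapl1 had 5 UMIs against 40.1 expected (0.125, 0.0403 to 0.292), and Bach2 had 1 against 9.56 (0.105, 0.00264 to 0.596). Of 17 tested CD8 effector genes 10 were called lower and none higher, with a median of -2.05. Gzmk had 1 UMI against 27.4 expected, a ratio of 0.0365 (0.000922 to 0.205), and Gzma, also a granzyme, 1 against 21.2, a ratio of 0.0472 (0.00119 to 0.265). Cd160, a receptor of cytotoxic lymphocytes, had no UMI against 10.4 expected, at least 3.46-fold lower with 3 UMIs as the floor over the set. Lcn4, a lipocalin gene, had none against 11.2 expected, at least 3.72-fold lower by the same floor. Ctsw, a protease of cytotoxic cells, gave 0.140 (0.0742 to 0.240). Gzmb did not share the pattern: it measured 6.26, 0.754 and 1.49 in Foxp3+ cells against 2.44, 0.0839 and 3.71 in CD8+ T cells, in 20 cells with up to 17 UMIs in a single cell. Its ratio was 1.87 (1.43 to 2.34) against CD8+ T cells, with library 3 the other way, and it was called higher against Tconv cells at 3.08 (2.14 to 4.30). The naive list, with 6 of 10 genes called lower and a median of -1.15, included Tcf7 at 0.256 (0.131 to 0.448) and Lef1 at 0.426 (0.278 to 0.622), transcription factors of naive and memory T cells. Against Tconv cells both were called lower too, Tcf7 at 0.267 (0.133 to 0.477) and Lef1 at 0.431 (0.275 to 0.645). Both lists varied by library: summed ratios in libraries 1, 2 and 3 were 0.171, 0.845 and 0.197 for effector genes and 0.639, 0.373 and 1.004 for naive genes. Set against activated CD8+ T cells, chosen for lacking naive genes, the naive median was 0.71, with 2 of 6 tested genes called higher and none lower.

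**Figure D5:**
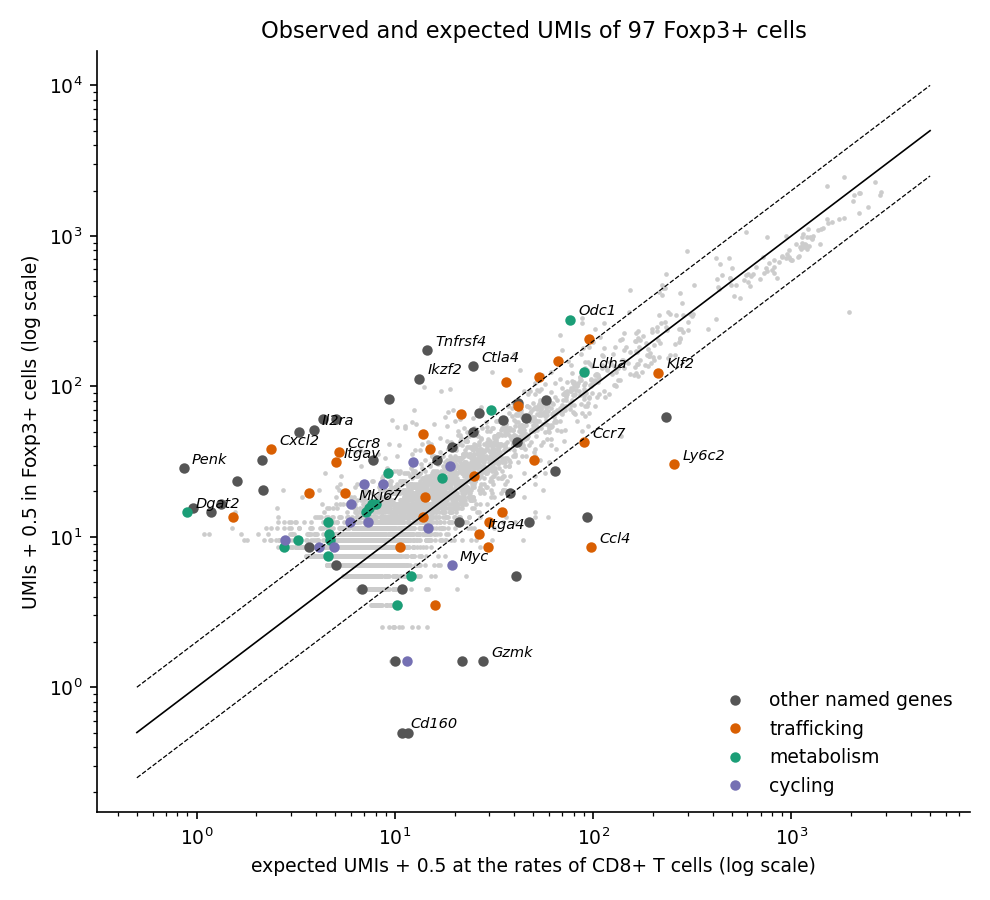
UMIs found in Foxp3+ cells (vertical axis) against UMIs expected at the rates of CD8+ T cells of the same libraries (horizontal axis), both with 0.5 added on log scales, for the tested genes, with named genes colored by group and dashed lines at 2-fold. Tnfrsf4, at 173 found and 13.9 expected, lies above the diagonal and Ly6c2, at 30 and 255, below it.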

How the data were processed

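The authors deposited whole-number UMI counts, 14597 genes by 12818 cells, with cells marked by library 1 to 6. They sequenced 10x 5′ libraries, aligned to mm10 by the methods (the labels name mm9), merged them with Cell Ranger and filtered with Seurat, and each deposited cell had 201 to 2494 genes and at most 4.94% mitochondrial UMIs. Deposited counts were used as they are, and doublets were not called here. No label ties libraries to the 3 PBS and 3 DTx samples, so no test across samples was made.

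UMIs found in Foxp3+ cells were set against those expected from comparison cells of the same library. Tested genes had at least 10 UMIs found plus expected, and the pseudocount was 0.5. Intervals are exact 95% ones. The code was tested on simulated data. Named genes were the markers, list members fixed by name, those with the highest and lowest ratios of each list, and the 12 highest and 10 lowest ratios of the table. The members and lists were chosen with earlier results of these data known. Promoters are RefSeq, GRCm38.p6, and overlaps of genes are from GENCODE. Python 3.11.15, numpy 2.4.6, scipy 1.17.1, pandas 2.3.3 and matplotlib 3.10.9 were used. Other gates, comparison cells, matching, filters, totals and pseudocounts, and leaving out each library, were tried. Some genes of the lists are not reported here.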

Additional observations from a re-analysis of the deposited data

Results flagged for a closer look

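Foxp3 UMIs also occurred in 18 cells with a Cd8a or Cd8b1 UMI, which no comparison used. These cells held 21 Foxp3 UMIs at a median of 2689.5 UMIs per cell, above the 1532 of the 97 Foxp3+ cells, and 13 of them were in library 1. Of the 18 cells, 11 also had a UMI of Ikzf2, Il2ra or Ctla4. Per 10000 UMIs they measured 2.51 for Ikzf2, 2.18 for Il2ra and 5.36 for Ctla4, against 5.73, 2.61 and 6.95 in the Foxp3+ cells and 0.562, 0.135 and 1.06 in the CD8+ T cells of libraries 1 to 3. Ccl5, a chemokine of CD8+ T cells, measured 34.2 in them, 16.0 in the Foxp3+ cells and 78.3 in the CD8+ T cells. For these 4 genes their values lay between the other sets. Gzmb, a granzyme, did not: it measured 4.19 in them, 3.94 in the Foxp3+ cells and 1.60 in the CD8+ T cells. All these values are pooled and not matched by library, and the sets differ in their mix of libraries. Doublets and free RNA were not tested.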

How the results depend on the processing

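The 343 genes called higher became 158 against Tconv cells, 216 without ribosomal protein and mitochondrial genes in the totals, 199 with at least 20 UMIs found plus expected and 202 with log2 ratios centred on their median (a setting chosen after seeing the data). The 109 called lower became 206 against activated CD8+ T cells, 29 with a Cd4 UMI also required of Foxp3+ cells, 192 with those totals, 43 with at least 20 UMIs, 1292 without a filter, 170 centred, and 60 to 98 leaving out a library (60 without library 1). The nuclear oxidative phosphorylation median (0.08) was -0.078 against activated CD8+ T cells, -0.022 with UMIs of both Cd8a and Cd8b1 required, -0.24 unmatched by library, -0.14 with those totals, and -0.0083 (without library 2) to 0.24 (without library 1) leaving out a library. Unmatched by library, which brings in the CD8+ T cells of libraries 4 to 6, the medians were -0.044 for glycolysis, -0.25 for S phase and -0.27 for G2/M, and log2 ratios were -0.0012 for Ccnb2, 0.031 for Ccr7, -0.18 for Mki67, -0.064 for Mt1 and -0.59 for Rrm2. The cholesterol median was 0.25 against activated CD8+ T cells and 0.43 against Tconv cells, where Cd40lg stood at -1.05 and Klrk1 at 0.27. The G2/M median was 0.17 with both Cd8 genes required and 1.04 with the Cd4 UMI required, and under the latter Cxcl2 was -1.16, Cyp51 -1.70 and Xcl1 0.15 on 19 cells. The cause of these changes was not tested. The marker share was 52.6% thinned to 500 UMIs, 75% thinned to 1000, and 75 to 88.1% leaving out a library (75% without library 1). The cycling share of Foxp3+ cells was 59.2% thinned to 1000 UMIs, 71.1% unthinned, and 44.2% and 5.26% with at least 2 or 5 UMIs. That of CD8+ T cells was 45.1, 58.2, 36.8 and 4.37%, and 13.4 to 21.3% leaving out a library (13.4% without library 3, 21.3% without library 2).

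In all, 124 of these summary values under an alternative kept their direction and stayed within the stated spread, 30 moved and 7 turned. For named genes the numbers were 1193, 217 and 10. No paired analysis was possible because no label ties a library to a sample, so libraries could not serve as replicates or pairs of samples, and PBS against DTx was not run for the same reason. The ratios themselves are matched within library. The depth of 97 cells and 195550 UMIs limits the rest: a gene with under 10 UMIs found plus expected was not compared, and no interval covers spread between mice.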
